A study of Mus musculus with 4 samples.

Results

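The 10 genes described here, of 32285 in the count tables, encode lectin-like receptors best known from natural killer (NK) cells: Klrg1, Klrc1, Klrc2, Klrd1, Klrk1, Klrb1c, Klre1, Klra6, Klra7 and Klra9. They were chosen by name, with earlier results of these data known, and all 10 were present in both gene expression libraries. Their levels were followed across 3 kinds of T cell, set by transcripts counted in each cell. CD8 cells had at least 1 unique molecular identifier (UMI) of Cd8a or Cd8b1 and none of Cd4. Conventional CD4 cells had a Cd4 UMI and no Foxp3 UMI, and regulatory cells had UMIs of both Cd4 and Foxp3.

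NK lectin receptors set the threshold at which a cytotoxic lymphocyte responds. NKG2D, encoded by Klrk1, activates through the adaptor DAP10 when it meets stress ligands. CD94, encoded by Klrd1, pairs with NKG2A (Klrc1), which inhibits on binding the MHC class Ib molecule Qa-1, or with NKG2C (Klrc2), which activates. Klre1 encodes a CD94-like receptor, Klrg1 an inhibitory receptor for cadherins that is widely used as a marker of differentiated effector T cells, Klrb1c the NK1.1 antigen, and Klra6, Klra7 and Klra9 are members of the Ly49 family, whose inhibitory forms bind MHC class I. On T cells these receptors appear after activation or on innate-like subsets, of which natural killer T cells are the best known.

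T cells came from B16bl6 melanomas, a transplantable line, in C57BL/6 mice inoculated at 6 to 8 weeks of age. Vsir fl/fl mice with CD4-Cre (VISTA-KO) were set against Vsir fl/fl littermates (WT), and all mice of both genotypes received a peptide vaccine on day 3 and 100 micrograms of antibody against CTLA-4 on days 4 and 8. Tumors of 5 to 6 mice by the methods, or 6 to 8 tumors by a legend, were pooled per genotype and the T cells sorted, which gave 1 gene expression library and 1 T cell receptor library for each genotype. The Cd4 promoter is active in developing thymocytes, so Cre acts in CD8 and CD4 lineages alike, and myeloid cells keep VISTA. With 1 pooled library per genotype no difference between genotypes has a replicate check and none was tested. The 95% intervals below, exact Poisson for a level, exact binomial for a share and exact conditional binomial for a ratio, cover counting error only.

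After removal of barcodes with fewer than 600 genes or 30% or more mitochondrial UMIs, 10224 WT and 9946 VISTA-KO cells were left. There were 5549 and 4350 CD8 cells (37431872 and 28412496 UMIs), 1768 and 3048 conventional CD4 cells, and 1528 and 1270 regulatory cells. Libraries shared 145 barcodes. CD3 UMIs were found in 95.4% to 99.8% of the cells of every gate. Vsir stood at 112 CPM in WT CD8 cells and 111 CPM in VISTA-KO CD8 cells. The tables do not show which exons the reads covered, so Vsir counts could not check the genotype labels, and the names WT and VISTA-KO are those of the labels. Levels are in CPM, the UMIs of a gene per 1000000 UMIs of the summed cells. A UMI marks 1 captured transcript, so levels were not scaled by gene length. Shares of cells with a UMI were taken after thinning each cell to 2000 UMIs, unless given as full counts. Full counts were used for the gates and for shares of cells with a CD3 or Cd8 UMI.

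All members but Klrg1 lay within 1.45 megabases of mouse chromosome 6, from position 128778485 to 130233322 (GRCm38.p6), in the NK gene complex. Klrg1 lay on the same chromosome at 122270596-122282833. The Ly49 genes arose by duplication and their copies are near identical in places, so the division of reads among them is uncertain. The similarity extends to their promoters. The following 30-base stretches come from RefSeq sequence of the minus strand. That of Klra6 was cut around its T cell factor (TCF) motif CTTTGA. Those of Klra7 and Klra9 are the best matches to it among the promoter windows of each gene. Capitals mark the 6 bases at the place of the motif. On either strand the motif was present in 16.2% of 27025 promoter windows of mouse genes, the first window of each gene. The Klra7 stretch lay in a window other than its first, so this share is no base rate for a best match. The Klrk1 window held the TCF motif as well. Motifs of RUNX, T-box and E-box factors were also looked for and are not shown. Klra6 held an E-box motif too, and Klrc1, Klrc2, Klrk1, Klre1 and Klrb1c held RUNX motifs.

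Klra6, chr6:130027044-130027073: tttcctctttttgCTTTGAtgaagaggagg
Klra7, chr6:130233382-130233411: tttcctctttttgCTTTGAtgaagaggagg
Klra9, chr6:130193121-130193150: tttcctctttttgCTTTGTtgacaaggagg

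Klra6 and Klra7 were identical over the 30 bases. Klra9 matched them at 27 of 30, with A19T, A23C and G24A counted from the 5′ end of the stretch, the first of which falls in the motif. Other genes of the family were as close, with Klra2 and Klra3 at 28 and Klra4 and Klra5 at 27 of 30. A match of letters is a description of the sequence and not of factor binding. Promoter sequences were at hand for 8 of the 10 members.

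A subset of cells with high summed levels of several of the receptors was set apart by its T cell receptor. The T cell receptor libraries held 135 WT and 115 VISTA-KO cells whose alpha chain joined TRAV11 to TRAJ18, the rearrangement of natural killer T cells. Their beta chains used TRBV13, TRBV29 or TRBV1 in 94.1% and 89.2%, against 26.2% and 33.6% of other gated cells with a beta chain, and Zbtb16, the transcription factor PLZF of these cells, stood at 104 and 142 CPM against 1.12 and 1.69 CPM. Among these alpha chains 11 different junctions were found, 7 of them in both libraries. The 4 most frequent, each 45 bases long, are printed because they differ at the single position in capitals, position 12 from the 5′ end.

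TRAV11-TRAJ18 junction 1: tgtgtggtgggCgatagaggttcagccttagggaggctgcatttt
TRAV11-TRAJ18 junction 2: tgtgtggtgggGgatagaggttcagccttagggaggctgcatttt
TRAV11-TRAJ18 junction 3: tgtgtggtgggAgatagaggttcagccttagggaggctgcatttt
TRAV11-TRAJ18 junction 4: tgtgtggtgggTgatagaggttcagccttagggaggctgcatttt

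Junction 1 was carried by 51 WT and 34 VISTA-KO cells. Relative to it, junction 2 (C12G) was found in 41 and 34 cells, junction 3 (C12A) in 18 and 23, and junction 4 (C12T) in 15 and 12. Together the 4 made up 92.6% of the WT and 89.6% of the VISTA-KO cells with this alpha chain. Most of these cells fell outside the 3 gates, 94 of 135 and 74 of 115, since they had no UMI of Cd4 or Cd8. There were 14 and 10 in the CD8 gate, 26 and 30 in the conventional CD4 gate and 1 in each regulatory gate.

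In the TRAV11-TRAJ18 cells Klrb1c, the gene of NK1.1, stood at 187 in WT, compared with 223 CPM in VISTA-KO. In all other gated cells it stood at 2.67 and 3.12 CPM, so the ratio was 70.1 and 71.4. Klra9 showed the same contrast, with 278 and 241 CPM against 2.96 and 2.86 CPM, a ratio of 94.1 and 84.4. The activating receptor gene Klrc2 reached 91.1 and 156 CPM, 10.5-fold and 19.2-fold above other gated cells. Klra7 was higher by 8.92-fold and 11.3-fold and Klre1 by 6.86-fold and 6.29-fold. Klrk1, at 416 and 494 CPM, was 3.29-fold and 3.19-fold higher, and Klrd1, at 361 and 362 CPM, 1.74-fold and 1.87-fold higher. Klra6 was higher by 4.04-fold and 3.39-fold on few UMIs. For Klrc1 the difference was within counting error, with ratios of 0.964 (0.803 to 1.15) and 1.04 (0.846 to 1.27). Klrg1 was lower, at 11.2 CPM (7 UMIs) and 38.6 CPM against 68.9 and 68.7 CPM. Every member except Klrc1 and Klrg1 was thus higher in these cells than in the other gated T cells of the same library.

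**Figure D1:**
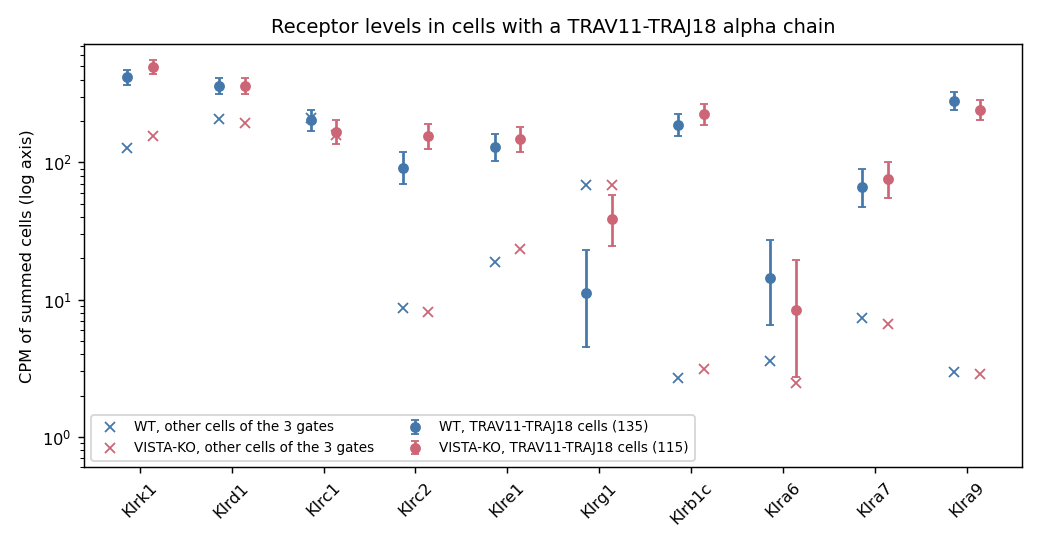
Levels of the 10 receptors (CPM of summed cells, log axis) in cells with a TRAV11-TRAJ18 alpha chain (circles, exact 95% Poisson intervals) and in all other cells of the 3 gates (crosses), by library. Circles for Klrb1c and Klra9 sit above 180 CPM in both libraries and the crosses near 3 CPM, whereas circles and crosses coincide for Klrc1 and the circles lie below the crosses for Klrg1.

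Cells of other groups held the same receptors in other proportions. Those with at least 2 UMIs of gamma or delta constant segments and no beta chain, 221 and 216 in number, had 158 and 119 CPM of Klrc1, 226 and 139 CPM of Klrd1, 153 and 166 CPM of Klrk1, and 48.0 and 35.0 CPM of Klrg1. Their Cd8a level was 762 and 440 CPM, and 68.3% and 34.3% of them had a Cd8 UMI. Their median depth was 11781 UMIs in WT and 6064 in VISTA-KO. A beta chain was found in 79.5% and 87.6% of CD8 cells. How many cells of the gamma-delta gate were alpha-beta cells with a missed beta chain was not tested. Cells with a CD3 UMI in no gate, without the TRAV11-TRAJ18 cells, had 87.2 and 80.7 CPM of Klrg1 but 36.6 and 43.1 CPM of Klrc1, so that Klrg1 was above Klrc1 here and below it in the gamma-delta gate.

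In CD8 cells 3 members gave most of the receptor transcripts. Klrk1, the NKG2D gene, stood at 170 CPM in WT against 215 CPM in VISTA-KO (ratio 1.26, 1.22 to 1.31), with a UMI in 23.4% and 27.5% of thinned cells. Klrd1, the CD94 gene, was at 274 and 278 CPM, a ratio of 1.02. Klrc1, the NKG2A gene, was at 299 and 252 CPM, a ratio of 0.844 (0.819 to 0.869), and was detected in 37.7% and 28.3% of thinned cells. This direction rested on a few clonotypes: with the largest clonotype of either library left out Klrc1 was at 237 CPM in WT cells and 263 CPM in VISTA-KO cells (ratio 1.11, 1.07 to 1.15), and without clonotypes of 100 or more cells at 240 and 261 CPM. Klrk1 kept its direction in these cells, with ratios of 1.34 and 1.32. The activating partner of CD94, Klrc2, was sparse in both libraries at 11.2 and 12.1 CPM. Cells with at least 3 Siglech UMIs and no CD3 UMI, plasmacytoid dendritic by their genes, were used to look at free RNA. Their median depth was 8305.5 and 8690 UMIs against 4848 and 5224.5 in CD8 cells. Leaving out cells with a CD3 UMI also removed those that took up free CD3 RNA. The cells kept can therefore understate the background and set no bound on it. Klrc1 was detected in 1 of 126 WT and 0 of 95 VISTA-KO thinned cells of this kind, and Klrg1, Klre1, Klrc2 and the Ly49 genes in 0, with exact upper limits of 2.89% and 3.81%. Klrd1 was found in 39.7% and 46.3% of them and Klrk1 in 7.14% and 9.47%, so they gave no background for these genes.

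The remaining members were at lower levels in CD8 cells. Klre1 stood at 26.8 in WT, compared with 38.9 CPM in VISTA-KO, the largest ratio among the 5 members above 20 CPM, at 1.45 (1.33 to 1.58). Klrg1 was at 50.8 and 58.9 CPM, but its share of thinned cells was 9.13% and 8.50%, so level and share did not run in the same direction. Without clonotypes of 100 or more cells its level was 54.6 and 46.9 CPM, so the direction of the level turned as well. Klre1 was detected in 4.01% and 5.50% and Klrc2 in 2.30% and 2.43% of thinned cells, the latter below the upper limits for the Siglech cells. Klra7 was at 9.78 and 9.89 CPM, Klra6 at 4.92 and 3.70, Klra9 at 3.61 and 4.26 and Klrb1c at 3.21 and 4.68 CPM. A log2 ratio of CPM plus 5 of at least 0.5 in size was used as a call for genes at 20 CPM or more in either library. In CD8 cells 0 of 5 such members were called, where 1.78% of all such genes were (1.08% higher and 0.69% lower in VISTA-KO), and the values nearest to it were those of Klre1 (0.46) and Klrk1 (0.33).

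**Figure D2:**
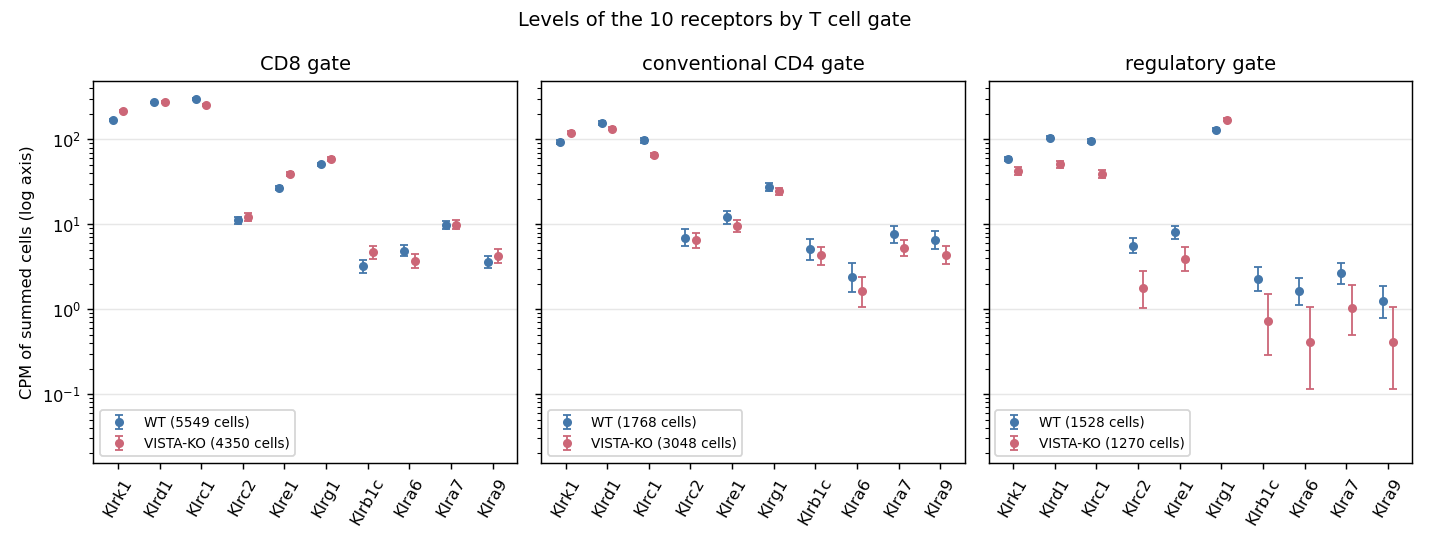
Levels of the 10 receptors (CPM of summed cells, log axis) in CD8, conventional CD4 and regulatory cells of the WT and VISTA-KO libraries, with exact 95% Poisson intervals. Klrc1, Klrd1 and Klrk1 are highest in CD8 cells, Klrg1 in regulatory cells at 130 and 171 CPM, and among members at 20 CPM or more the largest gaps between libraries are those of Klrc1 and Klrd1 in regulatory cells.

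Conventional CD4 cells had lower levels of Klrc1, Klrd1, Klrk1 and Klrg1 than CD8 cells. Klra9 and Klrb1c were exceptions in WT, at 6.60 and 5.11 CPM against 3.61 and 3.21 CPM in CD8 cells, and in VISTA-KO, at 4.36 and 4.30 CPM, they differed from CD8 cells by less than the counting error. Klrc1 stood at 97.8 CPM in WT against 65.7 CPM in VISTA-KO (ratio 0.672, 0.616 to 0.732), with a log2 ratio of -0.54, and was the member called of 4 at 20 CPM or more. Among all genes 4.25% were called in this gate, 1.5% higher and 2.75% lower. Klrk1 was at 92.9 and 120 CPM, a ratio of 1.30. Klrd1 was at 155 and 133 CPM and Klrg1 at 27.5 and 24.6 CPM.

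The composition of the conventional CD4 gate differed between libraries. Cd8a and Cd8b1 summed to 897 in WT, compared with 457 CPM in VISTA-KO. Among cells of the gate with no Cd8 UMI, 1190 and 2410 in number, Klrc1 was at 23.5 CPM in WT against 36.2 CPM in VISTA-KO, so that the direction of the difference turned (log2 ratio 0.53). Klrk1 was at 59.9 and 104 CPM in these cells, a wider difference in the same direction as before (log2 ratio 0.75). Klrd1 and Klrg1 turned like Klrc1, with log2 ratios of 0.41 and 0.45 after -0.21 and -0.14 in the whole gate. All 6 plasmacytoid dendritic markers, which include Siglech and Bst2, were lower in the VISTA-KO gate, with a summed level of 1510 in WT, compared with 798 CPM in VISTA-KO. The Siglech cells without CD3, 126 and 96 in number, of which 69 and 41 fell in this gate, had 330 CPM of Klrd1 in both libraries and 59.8 and 53.7 CPM of Klrk1, with the other 8 members at 0 to 2.89 CPM. When a CD3 UMI was also required, Klrd1 in conventional CD4 cells was at 147 and 129 CPM, close to the values above.

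Regulatory cells differed from the other gates in that Klrg1 was their leading member. It stood at 130 CPM in WT against 171 CPM in VISTA-KO, which was 4.71-fold and 6.98-fold the level in conventional CD4 cells, and CD8 cells had 0.392 and 0.344 of it. Its share of thinned cells was 19.1% and 19.9%. Regulatory cells with a UMI of Itgae, which encodes the CD103 integrin that binds E-cadherin, had 181 and 220 CPM. Those with neither Itgae nor Il1rl1, the receptor for IL-33, had 87.1 and 129 CPM. Those with Il1rl1 and no Itgae, 38 and 80 cells, had 143 (111 to 181) and 194 (160 to 232) CPM. Klrg1 was thus higher with Itgae, and with Il1rl1 and no Itgae, than with neither gene in both libraries. The intervals of the cells with Itgae (171 to 190 and 206 to 235 CPM) overlapped those of the cells with Il1rl1 and no Itgae.

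The genotype ratio of Klrg1 in regulatory cells, 1.32 (1.24 to 1.41), was not seen in every subset. In full counts, a Cd8 UMI was present in 52.0% of WT and 29.5% of VISTA-KO regulatory cells, at a median depth of 8838.5 and 5939 UMIs. Without the cells holding a Cd8 UMI, Klrg1 was at 192 and 201 CPM, a ratio of 1.05 (0.961 to 1.14). In cells of clonotypes found once it was at 188 and 182 CPM, and in clonotypes of 2 or more at 154 and 217 CPM.

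The CD94 and NKG2 genes were lower in the regulatory gate of the VISTA-KO library. Most of their UMIs in this gate lay in cells that also had a Cd8 UMI. Klrc1 was at 95.7 in WT, compared with 39.4 CPM in VISTA-KO (log2 ratio -1.18) and Klrd1 at 105 and 50.7 CPM (log2 ratio -0.98), both called, as 2 of 4 members at 20 CPM or more. Here 5.33% of all genes were called, 2.83% higher and 2.5% lower. Klrk1 was at 59.2 and 42.4 CPM, a ratio of 0.717. Cd8a and Cd8b1 summed to 857 CPM in the WT and 389 CPM in the VISTA-KO cells of the gate. Among the 734 and 895 regulatory cells with no Cd8 UMI, Klrc1 was at 9.74 and 5.95 CPM, Klrd1 at 16 and 12.1 CPM and Klrk1 at 11.5 and 12.6 CPM, so no member other than Klrg1 reached 20 CPM and 0 of 1 was called. Among the 794 and 375 with a Cd8 UMI, Klrc1 was at 129 and 85.0 CPM and Klrd1 at 140 and 103 CPM. These cells held 1702 of the 1752 Klrc1 UMIs of the WT gate and 346 of the 379 of the VISTA-KO gate. Their median depth was 13941 and 9346 UMIs, against 5233.5 and 5151 in those with no Cd8 UMI. A beta chain was found in 52.4% of WT and 75.6% of VISTA-KO regulatory cells. Other markers moved with the gate as well: the 7 NK markers summed to 406 and 213 CPM, with Ncr1 at 0.219 and 1.66 CPM, and the 7 macrophage markers to 138 and 74.6 CPM. The 4 division markers summed to 490 and 266 CPM and the B cell markers to 281 and 410 CPM. The melanoma markers, of which 4 of 4 at 20 CPM or more were called higher, summed to 5.63 and 194 CPM. They also differed in conventional CD4 cells (209 and 15.9 CPM) and in CD8 cells (10.5 and 200 CPM). In regulatory cells of clonotypes found once Klrc1 was at 22.1 and 24.7 CPM, a ratio of 1.12 (0.840 to 1.49), and Klrd1 at 48.4 and 40.3 CPM, a ratio of 0.832 (0.678 to 1.02). In clonotypes of 2 or more Klrc1 was at 10.7 and 1.74 CPM (25 and 2 UMIs), a ratio of 0.162 (0.0186 to 0.650). Klrd1 was there at 21.0 and 5.21 CPM (49 and 6 UMIs), a ratio of 0.248 (0.0869 to 0.580). The part of the markers above, of depth and of missed beta chains in the differences was not tested.

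Several members were found together as transcripts in CD8 cells, and not only those that pair as proteins. Among thinned cells with a Klrc1 UMI, 43.9% of WT and 47.3% of VISTA-KO cells had a Klrd1 UMI, against 30.1% and 26.6% of cells without Klrc1. With a Klrc2 UMI the Klrd1 share was 57.9% and 52.5%, against 34.8% and 32.0%. With a Klre1 UMI it was 66.8% in both libraries, against 34.0% and 30.5%. Klrk1 was detected in 51.7% and 65.9% of Klre1 cells, against 22.2% and 25.3%. Among cells with Klrc1, 33.9% and 47.2% had a Klrk1 UMI, against 17.1% and 19.8% of those without. Klrg1 did not follow this pattern in both libraries: Klrd1 was found in 41.5% of WT cells with Klrg1 against 34.7% without, and in 27.4% against 32.9% in VISTA-KO.

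The Ly49 genes were carried by a small group of CD8 cells. In full counts, a UMI of Klra6, Klra7 or Klra9 was found in 201 WT CD8 cells (3.62%) and 121 VISTA-KO CD8 cells (2.78%). All of them had a CD3 UMI. Among thinned cells with Klra7, 14.0% and 23.7% also had Klra6, against 0.50% and 0.364% of those without, and how far shared reads of these near-identical genes enter that overlap was not tested. The transcription factor gene Ikzf2, which encodes Helios, was detected in 42.1% of Klra7 cells in each library, against 10.4% and 9.26% of the others. Pdcd1, the PD-1 gene, was detected in 3.51% and 15.8% of Klra7 cells, against 40.8% and 36.8%. Klrd1 was detected in 59.6% and 63.2% of Klra7 cells, against 35.1% and 32.2%. The CD8 cells with Ly49 transcripts thus had more Ikzf2 and Klrd1 and less Pdcd1 than the rest in both libraries.

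The T cell receptor data then allowed the receptors to be read by clonal expansion. A clonotype was defined by the V gene and junction bases of the alpha and the beta chain, and its size was its number of CD8 cells in the library. Of CD8 cells with a clonotype, 902 of 4159 in WT and 1300 of 3459 in VISTA-KO were the only cell of theirs. There were 24 WT and 12 VISTA-KO clonotypes of 20 or more cells, and 2 in each library of 100 or more (1034 and 318 cells in WT, 291 and 147 in VISTA-KO). Ccr7, a gene of resting recirculating cells, was at 258 and 243 CPM in single cells and at 22.1 and 27.6 CPM in clonotypes of 20 or more. A log2 ratio of at least 1 in size between clonotypes of 20 or more cells and those of 1 cell was used as a call.

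In summed cells Klrc1 was higher in each size class from 2 to 99 cells than in single cells, in both libraries. In WT it went from 142 CPM in single cells to 254, 291 and 298 CPM at 2 to 4, 5 to 19 and 20 to 99 cells, and to 550 CPM in the clonotypes of 100 or more. In VISTA-KO it went from 217 CPM to 295, 310 and 305 CPM and then to 192 CPM. Between 2 and 99 cells the libraries lay close together, and they parted in the clonotypes of 100 or more. That difference between libraries rested on 2 clonotypes in each and was not tested. The log2 ratio of 20 or more cells over 1 cell was 1.58 in WT, a call, and 0.13 in VISTA-KO, and the WT value fell to 0.91 once the largest clonotype was left out.

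Klrg1 in summed cells was highest in the largest VISTA-KO clonotypes. In VISTA-KO it went from 37.1 CPM in single cells to 44.2 CPM at 20 to 99 cells and 141 CPM at 100 or more, and in WT from 39.5 CPM to 68.4 and then 34.5 CPM. The log2 ratio was 1.35 in VISTA-KO, a call, and 0.31 in WT. It rested on the largest VISTA-KO clonotypes: without the largest 1 it was 0.97, and with clonotypes of 20 to 99 cells it was 0.23, below the 0.72 of WT. Averaged over clonotypes instead of cells, Klrg1 was called in both libraries, with a log2 ratio of 1.5 in WT (31.6 to 98.7 CPM) and 1.02 in VISTA-KO. When clonotype size was counted over all cells of a library, the WT log2 ratio was 0.72 (28.2 to 49.9 CPM). That of VISTA-KO was then 1.40. The CD8 gate did not exclude Foxp3. Single cells had more of it (WT 76.6 CPM, VISTA-KO 33.9 CPM) than clonotypes of 20 or more (3.65 and 0.991 CPM). The part of cells with Foxp3 in the Klrg1 ratios was not tested.

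Klrk1, Klrd1 and Klre1 were lower in clonotypes of 100 or more than in single cells of both libraries, on 2 clonotypes in each. Klrk1 did not fall step by step: it was at 162, 246, 210, 198 and 121 CPM from the smallest class to the largest in WT, and at 243, 282, 250, 206 and 47.9 CPM in VISTA-KO. The log2 ratio of Klrk1 for 20 or more cells over 1 cell was -0.05 in WT and -1.09 in VISTA-KO, where it was called and where without the largest clonotype it was -0.55. With clonotypes of 20 to 99 cells it was 0.28 and -0.23, so neither the WT direction nor the VISTA-KO call held. Klrd1 went from 328 to 199 CPM in WT and from 308 to 83.6 CPM in VISTA-KO, but stood at 312 and 329 CPM in clonotypes of 20 to 99 cells. Klre1 went from 31.0 to 5.75 CPM and from 41.1 to 2.22 CPM, with 31.7 and 45 CPM at 20 to 99 cells.

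Klra6 and Klra7 were found mostly in cells of the smallest clonotypes. Klra7 stood at 36.8 CPM in WT against 27.1 CPM in VISTA-KO single cells (191 and 206 UMIs), and clonotypes of 20 or more held 3 and 1 UMIs. In WT single cells exceeded expanded ones 161-fold (54.3 to 788), and in VISTA-KO cells 164-fold (29.1 to 6503), with wide intervals because so few UMIs were counted. Klra6 had 80 and 81 UMIs in single cells and 0 in clonotypes of 20 or more, at least 67.5-fold and 21.5-fold lower against a floor of 3 counts. Klra9 did not fall step by step, at 7.89 and 6.04 CPM in single cells, 1.5 and 1.86 CPM at 2 to 4 cells and 5.43 and 7.88 CPM at 5 to 19 cells. It had 4 and 0 UMIs in clonotypes of 20 or more. TRAV11-TRAJ18 cells held part of it, and without them Klra9 was at 6.05 CPM in WT single cells and 3.57 CPM in VISTA-KO single cells. Klra7 was called lower in both libraries.

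In all, 2 of 6 members at 20 CPM or more were called in WT (Klrc1 higher, Klra7 lower) against 2.99% of all genes (1.36% higher, 1.63% lower), and 3 of 6 in VISTA-KO (Klrg1 higher, Klrk1 and Klra7 lower) against 6.0% (2.99% higher, 3.01% lower). The median log2 ratio of the members was -0.22 in WT and -0.83 in VISTA-KO, and 0.09 and 0.04 over all genes. Cells with a Ly49 UMI showed the pattern from the other side: 76.6% of those with a clonotype in WT and 66.3% in VISTA-KO were the only cell of theirs, against 19.9% and 36.8% of the other CD8 cells, and 3.13% and 1.09% belonged to clonotypes of 20 or more, against 53.9% and 22.4%.

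**Figure D3:**
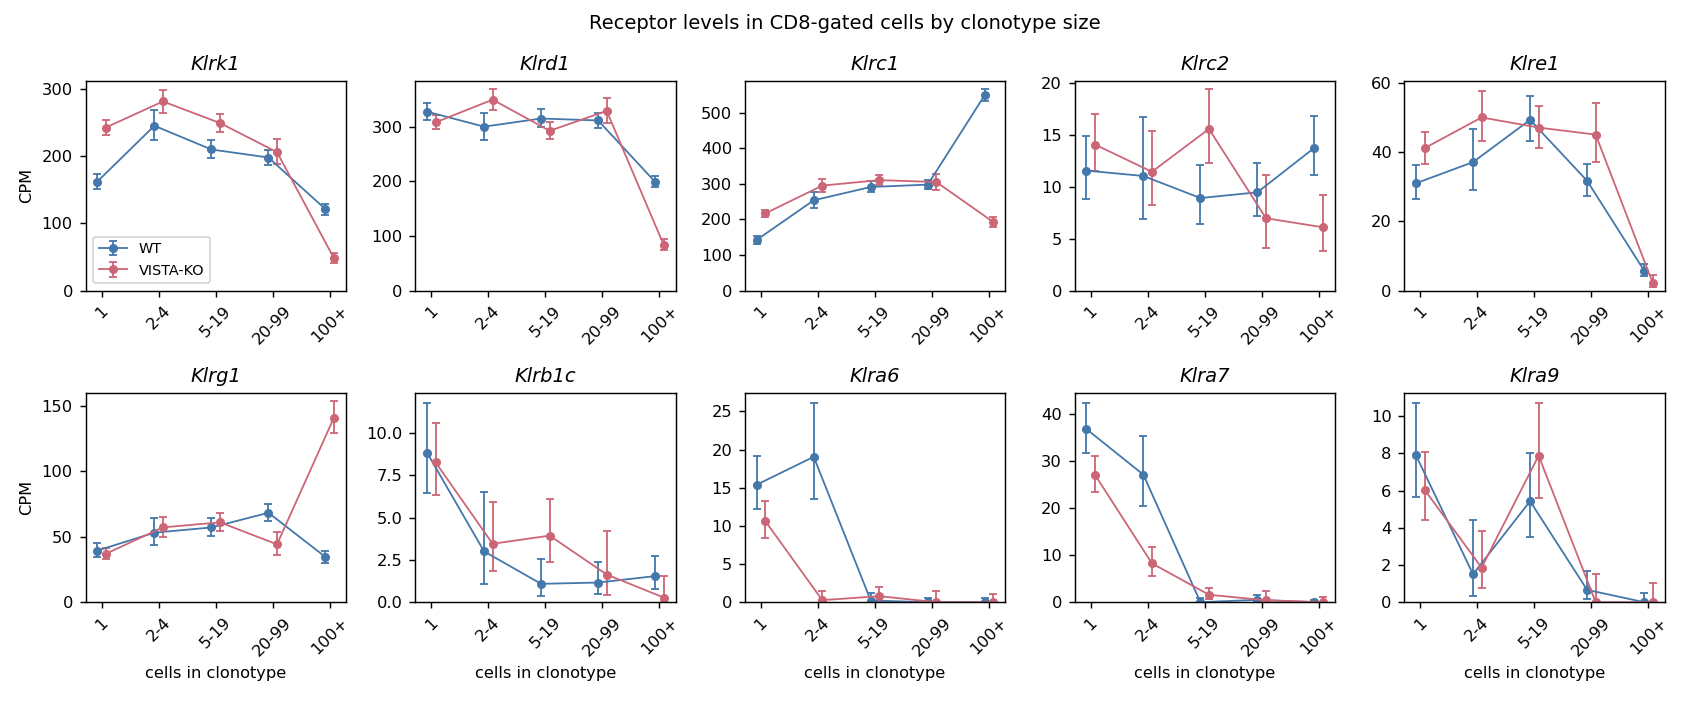
Levels of each receptor (CPM of summed CD8 cells, linear axes that start at 0) by number of cells in the clonotype, in WT and VISTA-KO, with exact 95% Poisson intervals. Klrc1 in WT climbs to 550 CPM and Klrg1 in VISTA-KO to 141 CPM in clonotypes of 100 or more cells, whereas Klrk1, Klrd1 and Klre1 drop there in both libraries and Klra6 and Klra7 are near 0 from 5 cells on.

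Clonotypes of 20 or more cells differed widely from each other, so the sums above depended on a few of them. Klrc1 ranged from 28.3 to 1023 CPM in the 24 WT clonotypes, with a median of 311 CPM, and 20 of 24 lay above the single-cell level. In the 12 VISTA-KO clonotypes it ranged from 43.9 to 757 CPM, with a median of 166 CPM, and 5 of 12 lay above. Klrg1 ranged from 0 to 280 CPM in WT (median 36.1) and from 0 to 241 CPM in VISTA-KO (median 67.9). The ranges of the libraries overlapped for both genes. The largest WT clonotype had 699 CPM of Klrc1 and 44.0 CPM of Klrg1, and the next 198 and 12.2 CPM, while the largest VISTA-KO clonotype had 123 CPM of Klrc1 and 143 CPM of Klrg1 and the next 310 and 138 CPM. Klra6 had no UMI in any of the 36 clonotypes, and Klra7 had UMIs in 2 WT clonotypes and 1 VISTA-KO clonotype.

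Across the 36 clonotypes of both libraries the CD94 and NKG2 genes varied together. These correlations are descriptions over clonotypes that share a library, a pool of mice and often a depth. Pearson's r of log2 (CPM + 5) was 0.80 for Klrd1 and Klrk1, 0.78 for Klrc1 and Klrd1 and 0.75 for Klrc1 and Klrk1. Among 5904 genes compared, the 3 nearest to Klrd1 were Klrk1, Klrc1 and Rpl35a (0.71). The nearest that was no member was Il18rap for Klrk1 (0.77), which encodes a subunit of the IL-18 receptor, and Cx3cr1 for both Klre1 (0.72) and Klrc1 (0.70), the fractalkine receptor gene of circulating effector cells. Klrg1 had an r of -0.16 to Klrd1, which was 0.09 in WT and -0.65 in VISTA-KO. Its r to Klrc1 was 0.32 and -0.52 and to Klre1 0.39 and -0.37, so the libraries differed in sign, a difference that was not tested. Over both libraries Cap1 (0.81), Sept1 (0.81) and Rap1b (0.79) were nearest to it.

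**Figure D4:**
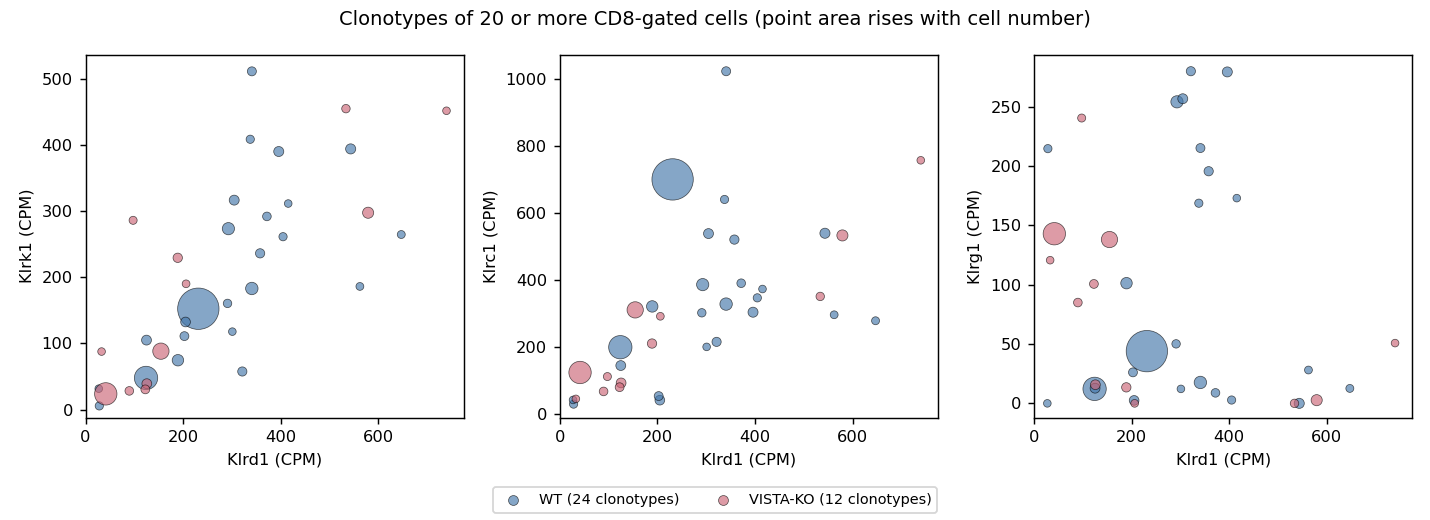
Each point is a clonotype of 20 or more CD8 cells (24 WT, 12 VISTA-KO), with its area rising with its number of cells. The axes give CPM of Klrd1 against Klrk1, Klrc1 and Klrg1. Klrk1 and Klrc1 increase with Klrd1, and the largest WT clonotype lies at 699 CPM of Klrc1, whereas Klrg1 is spread from 0 to 280 CPM with an r to Klrd1 of 0.09 in WT and -0.65 in VISTA-KO (log2 scale).

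CD8 cells were also gated by genes of known differentiation states. Gates overlap and pick cells of different depth, with a median of 4772 to 5685 UMIs for WT gates other than those on Havcr2 (10331.5) and on the division genes Mki67 and Top2a (16213). Klrg1 was lowest in cells with Ccr7 and Lef1 and no Pdcd1, at 16.9 in WT, compared with 4.08 CPM in VISTA-KO, and highest in cells with Cx3cr1 or S1pr5, genes of circulating effector cells, at 96.5 and 91.3 CPM. The latter gate was also highest for Klre1 (45.7 and 88.4 CPM), Klrk1 (222 and 354 CPM), Klrd1 (372 and 474 CPM) and Klrc1 (373 and 423 CPM). In cells with Tcf7 and Pdcd1 and no Havcr2, a gate for precursors of exhausted cells, Klrc1 was at 355 and 226 CPM. In cells with Pdcd1 and Havcr2, a gate for exhausted cells, it was at 225 and 318 CPM, so its ratio between libraries had opposite directions in these gates. Klra7 was highest in cells with Il7r and Tcf7 and no Pdcd1 (37.1 and 18.7 CPM) and low with Pdcd1 and Havcr2 (1.37 and 4.68 CPM).

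**Figure D5:**
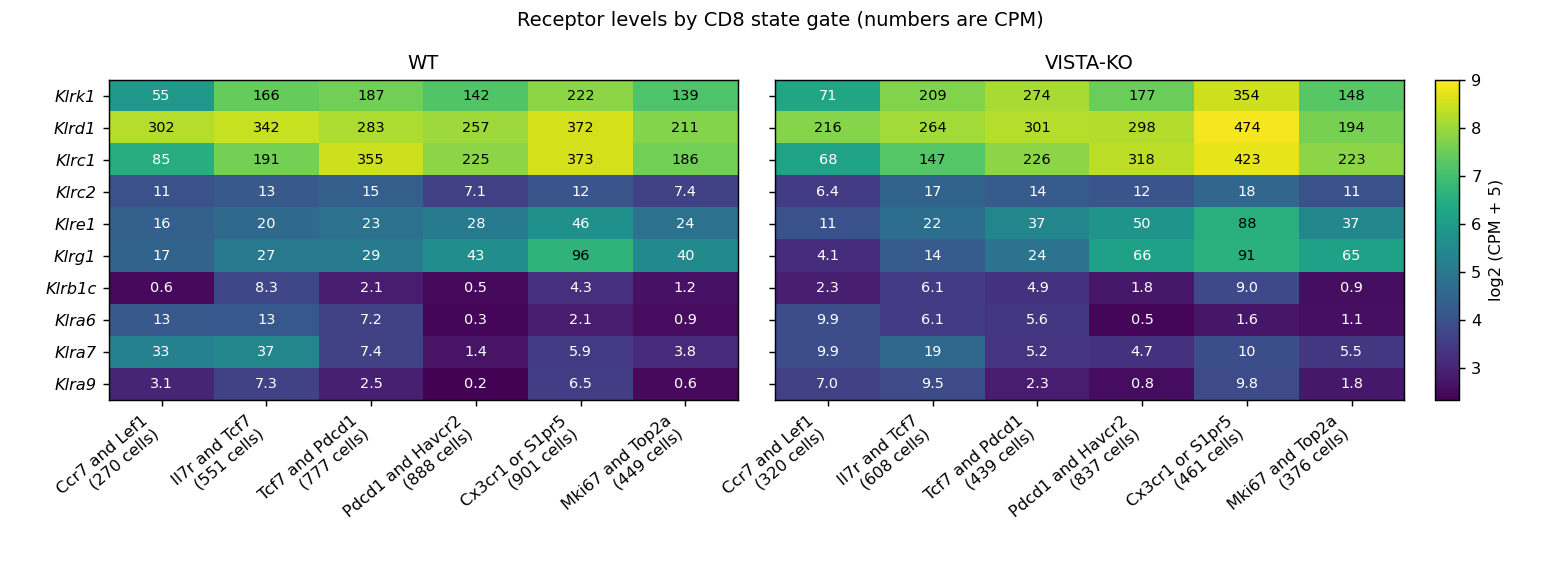
Levels of the 10 receptors in 6 gates of CD8 cells in the WT and the VISTA-KO library, with CPM printed in each field and colour giving log2 (CPM + 5). Klrk1, Klrd1, Klrc1, Klre1 and Klrg1 are highest in the gate for Cx3cr1 or S1pr5 in both libraries, and Klra6 and Klra7 reach their highest levels in the gates without Pdcd1 on the left.

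Genes that act with the receptors were followed in the same comparisons. Of 13 adaptors and signal proteins, 11 reached 20 CPM. In CD8 cells 0 of 11 were called between genotypes, and Hcst, which encodes the DAP10 adaptor of NKG2D, was at 571 and 603 CPM. In conventional CD4 and in regulatory cells 2 of 11 were called lower, in each case Tyrobp (DAP12) and Fcer1g. Tyrobp was at 506 CPM in WT against 241 CPM in VISTA-KO conventional CD4 cells, and at 5988 and 5755 CPM in the Siglech cells without CD3. In the conventional CD4 gate it thus moved together with the plasmacytoid dendritic markers given above. In regulatory cells with no Cd8 UMI both genes were still called, Tyrobp at 58.3 and 21.6 CPM and Fcer1g at 51.6 and 18.4 CPM. Siglech was at 5.65 and 7.57 CPM there. Of the macrophage markers, Lyz2 was called lower in these cells as well, at 35.9 and 5.22 CPM. C1qb (3.90 and 6.49 CPM) and Apoe (3.51 and 17.5 CPM) ran the other way and were not called. The part of other cell types in these calls was not tested. Expanded WT clonotypes had less Tyrobp (88.2 to 24.6 CPM) and Fcer1g (120 to 45 CPM) than single cells, as did VISTA-KO for Tyrobp (54.4 to 18.5 CPM). Fcer1g in VISTA-KO went from 83.8 to 39.8 CPM, a log2 ratio of -0.99 just short of the call.

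Of 14 ligand genes, 6 or 7 reached 20 CPM and 0 were called in any comparison. H2-T23, the gene of the NKG2A ligand Qa-1, was at 702 CPM in WT CD8 cells and 785 CPM in VISTA-KO CD8 cells and at 745 and 904 CPM in regulatory cells. Of 14 further receptors of the NK gene complex in the tables, 0 reached 20 CPM in CD8 or regulatory cells, and Klra17 was called lower in VISTA-KO conventional CD4 cells (21.1 and 11.5 CPM). The plasmacytoid dendritic markers given above were lower in the same gate, and their part in the Klra17 call was not tested. Of 9 other receptors shared with NK cells, 0 of 6 were called in CD8 cells, and Cd160 was called lower in conventional CD4 cells (52.0 and 30.5 CPM) and in regulatory cells (45 and 16 CPM). In regulatory cells with no Cd8 UMI, Cd160 was at 4.09 and 3.96 CPM and was not called. Ncr1, which defines NK cells, was at 0 CPM in WT CD8 cells and 0.810 CPM in VISTA-KO CD8 cells, while the 7 NK markers summed to 609 and 464 CPM, most of it Gzma.

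Of 12 transcription factor genes, Zfp683, which encodes Hobit, was called higher in VISTA-KO CD8 cells (12.4 and 21.4 CPM, 1 of 11) and, with Tbx21 (103 and 157 CPM), in conventional CD4 cells. In regulatory cells Eomes (28.8 and 17.6 CPM), Zeb2 (29.0 and 18 CPM) and Id2 (506 and 355 CPM) were called lower. In those with no Cd8 UMI, Id2 alone of the 3 was still called (486 and 330 CPM), and Eomes was at 2.73 and 2.70 CPM and Zeb2 at 15.6 and 12.6 CPM. By clonotype size the calls were alike in both libraries, with Tcf7 and Ikzf2 lower and Prdm1 higher in expanded clonotypes. Ikzf2 went from 137 to 46.5 CPM in WT and from 94.5 to 41.8 CPM in VISTA-KO, the same direction as Klra6 and Klra7. It was detected more often in Klra7 cells, as given above. Foxp3, which the CD8 gate did not exclude, went from 76.6 to 3.65 CPM and from 33.9 to 0.991 CPM. The part of cells with Foxp3 in the fall of Ikzf2 was not tested.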

How the data were processed

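The authors aligned both read types with Cell Ranger 5.0.0 to mm10 (GRCm38). They deposited unnormalised UMI counts for each gene in each cell, and receptor contigs in AIRR format. Sources differ on the kit (3′ in the labels, 5′ in the methods), and the tables hold V(D)J contigs. Cells were filtered as in the study's methods. Sums of counts per gate and library were scaled to CPM, a fold was taken as log2 of CPM plus 5, and genes at 20 CPM or more were compared (Python 3.11.15, numpy 2.4.6, scipy 1.17.1, pandas 2.3.3, scanpy 1.11.5, matplotlib 3.10.9). The steps were tested on simulated data. Members, lists and alternatives were chosen with earlier results of these data known. All members and listed genes could be named, and the 3 genes nearest to each member over clonotypes. Doublets were kept. As an alternative, cells with 2 or more beta chains or a Scrublet score above percentile 92 were left out (1047 WT, 1140 VISTA-KO), since at its own threshold Scrublet marked 1 and 0 cells. Other alternatives changed the cell filter, gates, CPM denominator, thinning, pseudocount, clonotype definition and large clonotypes. Settings without Cd8 UMIs, without TRAV11-TRAJ18 cells, without clonotypes of 100 or more cells and with clonotypes of 20 to 99 cells were chosen after seeing the data.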

Additional observations from a re-analysis of the deposited data

Results flagged for a closer look

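For several members the ratio of VISTA-KO over WT ran in opposite directions in different groups of cells, with intervals on either side of 1; with 1 library per genotype the differences between the groups were not tested. Klrk1 had a ratio of 1.30 in conventional CD4 cells and 0.717 in regulatory cells. Among cells with no Cd8 UMI the ratios were 1.74 (1.53 to 1.99) and 1.10 (0.765 to 1.58), so the opposite directions were no longer seen. By clonotype size in CD8 cells, Klrc1 had a ratio of 1.52 in clonotypes of 1 cell and 0.548 in those of 20 or more, and Klrk1 of 1.5 and 0.714. In clonotypes of 20 to 99 cells the ratios were 1.02 (0.939 to 1.12) and 1.04 (0.936 to 1.16), so the ratios under 1 rested on the 2 clonotypes of 100 or more cells in each library. By state gate, Klrg1 had a ratio of 1.62 in cells with Mki67 and Top2a and 0.502 in those with Il7r and Tcf7. Klrc1 had a ratio of 1.41 in cells with Pdcd1 and Havcr2 and 0.636 in those with Tcf7 and Pdcd1. Klrd1 had a ratio of 1.27 in cells with Cx3cr1 or S1pr5 and 0.715 in those with Ccr7 and Lef1.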

How the results depend on the processing

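Each value was recomputed under the alternatives. Of the genotype log2 ratios, 326 were counted as kept. For a ratio that was called this meant that it stayed called, whatever its size, and for any other that it stayed within counting error. Another 53 that were not called moved beyond counting error with no change of call. The direction turned in 8 of the 326 and 12 of the 53. For the ratios by clonotype size these numbers were 104 and 48, with 4 and 8 turned. A kept call could still shrink: that of Klrc1 in WT went from 1.58 to 1.04 with clonotypes of 20 to 99 cells. In CD8 cells Klrc1 turned from -0.24 to 0.15 without the largest clonotype of each library and to 0.12 without clonotypes of 100 or more CD8 cells, Klrg1 from 0.20 to -0.01 and -0.20, and Klrd1 from 0.02 to -0.06 with the mean over cells. Without cells with a Cd8 UMI, Klrk1 in regulatory cells turned from -0.44 to 0.09. By clonotype size, Klre1 in WT turned from -0.67 to 0.23 with the mean over clonotypes, and with clonotypes of 20 to 99 cells Klrd1 and Klre1 in VISTA-KO turned from -0.74 and -0.91 to 0.09 and 0.12. Numbers of members called between genotypes moved as follows. In CD8 cells the number was 1 (Klre1, log2 ratio 0.52) with a pseudocount of 1 CPM. In conventional CD4 cells it went from 1 to 0 with the mean over cells, without the largest clonotype of each library, without clonotypes of 100 or more CD8 cells and with a pseudocount of 20 CPM, where Klrc1 was at -0.26, -0.46, -0.47 and -0.46. Without cells with a Cd8 UMI it was 2, Klrk1 (0.75) and Klrc1, whose log2 ratio reversed to 0.53. In regulatory cells it went from 2 to 0 without those cells, with Klrc1 at -0.43 and Klrd1 at -0.30. Klrk1 in regulatory cells passed the fold without doublets (-1.02) and with the mean over cells (-0.54). By clonotype size, the WT number went from 2 to 1 without the largest clonotype (Klrc1 0.91), and Klrg1 reached 1.5 with the mean over clonotypes. The VISTA-KO number went from 3 to 1 without the largest clonotype (Klrg1 0.97, Klrk1 -0.55) and to 1 with clonotypes of 20 to 99 cells (0.23 and -0.23). Klrk1 was at -0.87 with the beta chain alone and -0.42 with the mean over clonotypes. The causes were not tested, except that a setting without a clonotype or without cells has fewer cells by construction.

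No paired analysis was possible because each genotype had 1 library. Genotype, pool of mice and library preparation cannot be told apart. Members under 20 CPM rest on few UMIs. Levels of Ly49 genes depend on how reads of near-identical copies were assigned.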
